A study of Mus musculus with 4 samples.

Results

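Gamma-delta T cells are the T lymphocytes whose antigen receptor pairs a gamma chain with a delta chain. They were followed here in 4 single-cell RNA libraries of live CD45+ leukocytes sorted from subcutaneous KPC tumours, which grow from a mouse pancreatic cancer line of Pdx1-Cre origin. The cells were selected on measured values. A cell barcode was taken when it held 300 to 5000 genes and at most 6% of unique molecular identifiers (UMIs, counted RNA molecules) from mitochondrial genes, at least 1 UMI of Trdc and at least 1 of Cd3d, Cd3e or Cd3g, and no UMI of Trac, Trbc1, Trbc2, Ncr1 or Csf1r. This gave 112 of the 55090 deposited cells, with 26 in the Untreated, 15 in the STING agonist, 43 in the LTbR agonist and 28 in the STING and LTbR agonist library. Sets of 4 values below keep this order.

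All tumours grew in young adult male C57BL/6NHsd mice without a gene alteration of the host. The STING agonist was ADU-S100, injected into the tumour once. The LTbR agonist was the antibody 4H8 against the lymphotoxin-β receptor, given repeatedly into the peritoneal cavity. The remaining group received both agents, and tumours of all groups were taken when they were resected. Tumours of a group were pooled before the sort, so each treatment had 1 library. No difference between treatments therefore has a replicate check, and intervals given for such differences cover counting error only.

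Gamma-delta T cells arise in the thymus in waves that carry different receptor segments. Some leave the thymus already committed to making the cytokine IL-17, with the receptors for IL-23 and IL-1, and others make interferon-γ and carry receptors shared with natural killer (NK) cells. In tumours the first kind is best known for drawing in neutrophils and other myeloid cells, and the second for killing tumour cells.

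The gate can be followed step by step. Of cells within the limits on genes and mitochondrial UMIs, 993 held a Trdc UMI, 494 of these also held a CD3 UMI, and 408 of those lacked Trac. Leaving out cells with Trbc1 or Trbc2 took the number to 153. Leaving out Ncr1 took it to 136 and leaving out Csf1r to 112. Just inside the gate, 10, 4, 11 and 14 cells held a single Trdc UMI. Just outside it, 184 cells met every other condition but held a UMI of Trbc1 or Trbc2. Of cell barcode sequences, 305 occurred in more than 1 library, and 0 of these belonged to a gamma-delta cell.

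The gamma-delta cells held 284635 UMIs in all, with a median of 2353.5 UMIs a cell and a range of 533 to 6108. By library the median was 2333.5, 3198, 2547 and 1798 UMIs. Alpha-beta T cells, selected by a CD3 UMI, a UMI of Trac, Trbc1 or Trbc2 and none of Trdc, Ncr1 or Csf1r, numbered 953, 438, 1464 and 1061 and had medians of 4078, 4272.5, 3169.5 and 2026 UMIs. NK cells, selected by Ncr1 without CD3, Trac, Trbc1, Trbc2 or Csf1r, numbered 69, 45, 87 and 80. Because gamma-delta cells were shallower than alpha-beta cells, shares of cells with a UMI are also given after each cell was thinned to 1000 UMIs, which left 98 gamma-delta and 3743 alpha-beta cells.

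The receptor genes that the gate did not use were examined first. Tcrg-C1, the constant region of the gamma chain joined to most V gamma segments (Trgc1 in the files), was found in 14 of 26, 9 of 15, 30 of 43 and 14 of 28 gamma-delta cells. It was found in 135 of 3916 alpha-beta cells (3.45%), in 0 of 281 NK cells, in 0 of 376 B cells and in 0.0626% of 23968 macrophages. Trdc itself, which the gate required, was found in 24.2% of NK cells, 0.238% of macrophages and 0 of 376 B cells, at median depths of 2369, 5253 and 4244 UMIs. Tcrg-C1 was thus missing from the NK cells, where Trdc was not. The gamma-delta cells without a Tcrg-C1 UMI were not told apart from NK cells by this gene. Over the libraries, Tcrg-C1 was higher in gamma-delta than in alpha-beta cells by 5.14 on the log2 scale (SE 0.27, edgeR adjusted p = 5.25e-74). Tcrg-C2 was higher by 1.59 (SE 0.26) and Tcrg-C4 by 3.21 (SE 0.37), while Tcrg-C3 had 0 UMIs in gamma-delta cells.

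The constant genes resemble each other, and the first 60 coding bases of each are shown because reads in this stretch may not tell Tcrg-C1 from Tcrg-C2. Sequences are from the GENCODE M21 annotation on GRCm38, 5′ to 3′ on the coding strand, with capitals for bases that differ from Tcrg-C1.
Tcrg-C1 (chr13:19214103-19214162, plus strand): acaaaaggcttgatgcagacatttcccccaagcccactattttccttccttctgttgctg
Tcrg-C2 (chr13:19307492-19307551, minus strand): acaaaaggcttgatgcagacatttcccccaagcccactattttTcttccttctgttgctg
Tcrg-C4 (chr13:19344558-19344617, plus strand): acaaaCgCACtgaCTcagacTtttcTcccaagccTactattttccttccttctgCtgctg
Tcrg-C2 differed from Tcrg-C1 at 1 of these bases and Tcrg-C4 at 10, so the split of UMIs between Tcrg-C1 and Tcrg-C2 is uncertain.

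Which V segments the cells carried was read from the V gamma gene with most UMIs in each cell. A call was possible in 39 of 112 cells, while 67 had no V gamma UMI and 6 had a tie. Trgv2 was called in 18 cells, Trgv1 in 8, Trgv5 in 6, Trgv6 in 5 and Trgv4 in 2, and Trgv3 and Trgv7 in 0. As shares of called cells these were 46.2% for Trgv2 (95% Clopper-Pearson interval 30.1 to 62.8), 20.5% for Trgv1 (9.30 to 36.5), 15.4% for Trgv5 (5.86 to 30.5), 12.8% for Trgv6 (4.30 to 27.4) and 5.13% for Trgv4 (0.627 to 17.3). Trgv2 was also found in 9.55% of alpha-beta cells, so it is a weak mark of gamma-delta cells. In contrast, Trgv5 was found in 0 of 3916 alpha-beta cells and Trgv6 in 5.

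Among V delta genes, Trdv4 stood out. It encodes the V delta segment that pairs with the Trgv5 chain in the epidermis and with the Trgv6 chain in IL-17-producing cells of fetal origin. Trdv4 UMIs were found in 10 of 26, 6 of 15, 11 of 43 and 6 of 28 gamma-delta cells, against 5 of 3916 alpha-beta cells and 32 of 281 NK cells. Since V delta and Trdc lie on the same messenger RNA, this difference is not independent of the gate and was not tested. Of the cells with a Trgv5 call, 6 of 6 held Trdv4, and of those with a Trgv6 call, 4 of 5 did. The corresponding numbers were 4 of 8 for Trgv1, 5 of 18 for Trgv2 and 0 of 2 for Trgv4. The other V delta genes with UMIs in gamma-delta cells were each found in at most 7 cells.

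The end of the V segment, which codes for the conserved cysteine where the variable joint begins, is shown for the segments on which the following results turn. Capitals mark the cysteine codon after the pair of tyrosine codons. The sequences are again from GENCODE M21 on GRCm38.
Trdv4 (chr14:54075456-54075515, plus strand): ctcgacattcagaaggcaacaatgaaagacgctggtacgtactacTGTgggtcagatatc
Trgv6 (chr13:19190870-19190929, plus strand): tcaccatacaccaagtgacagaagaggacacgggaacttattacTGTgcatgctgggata
Trgv1 (chr13:19340395-19340454, plus strand): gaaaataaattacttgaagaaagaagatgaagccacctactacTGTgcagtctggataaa
Trgv4 (chr13:19185447-19185506, plus strand): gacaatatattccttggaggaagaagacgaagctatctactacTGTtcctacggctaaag

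The share of gamma-delta cells among CD3-detected cells was close in the 4 libraries. It was 1.81% of 1435 cells, 1.82% of 825, 1.90% of 2268 and 1.62% of 1729. The ratio to Untreated was 1.00 in the STING agonist library (95% Wald interval on the log scale 0.535 to 1.88), 1.05 in the LTbR agonist library (0.646 to 1.70) and 0.894 with both agonists (0.527 to 1.52). A difference was not detectable at these numbers of cells, and the intervals allow a share up to 1.90-fold lower or 1.88-fold higher. Among all cells within the limits the share was 0.334, 0.105, 0.306 and 0.178%. On that denominator the STING agonist library was below Untreated with a ratio of 0.313 (0.166 to 0.591) and the library with both agonists with a ratio of 0.533 (0.313 to 0.909). The Trdc-positive, CD3-positive cells with Trbc, counted separately, were 184 in all, more than the gamma-delta cells themselves.

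The first comparison over libraries asked how gamma-delta cells differ from alpha-beta T cells of the same tumours. Genes of the IL-17-producing, or type 17, programme were higher in gamma-delta cells, and 11 of 18 checkpoint and activation genes, 5 of 9 cytotoxic genes and 7 of 20 type 1 genes were lower. UMIs were summed per library and cell kind, and edgeR's quasi-likelihood test was run with the library as a block over 8852 genes. It called 235 genes higher in gamma-delta cells (2.65% of those tested) and 368 lower (4.16%), with a median log2 difference over all genes of -0.14. The split between higher and lower calls depended on the setting, with 294 higher and 313 lower from edgeR with RLE factors, 267 and 241 from DESeq2, and 373 and 349 with Trbc allowed. DESeq2 also called 18 of the 19 type 17 genes that edgeR called, 3 of the 7 type 1 genes, 4 of the 5 cytotoxic genes and 7 of the 11 lower checkpoint and activation genes given below. Of the 4 lower trafficking genes it called 1. The genes of the gate were left out.

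Of the 27 genes on the type 17 list, 23 had enough UMIs to be tested, 19 were called higher and 0 lower. Of the 23, 10 reached the filter on low counts only with the gamma-delta cells, where they are high, among them Blk, Il23r, Scart1, Sox13 and Zbtb16, so their calls are in part set by the filter. Of the 13 that alpha-beta cells alone would have carried through it, 9 were higher and 0 lower, with a median log2 difference of 1.42. Il23r, the receptor subunit for IL-23, was found in 13 of 26, 6 of 15, 13 of 43 and 5 of 28 gamma-delta cells. Its summed level was 822, 446, 400 and 237 CPM (the gene's UMIs scaled to a common total of the cells' UMIs), against 12.3, 24.8, 14.4 and 7.74 CPM in alpha-beta cells. Every gamma-delta level exceeded every alpha-beta level, and the log2 difference was 4.85 (SE 0.29, edgeR adjusted p = 1.51e-57). After thinning, Il23r was found in 24.5% of gamma-delta and 1.26% of alpha-beta cells.

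Blk, a Src-family kinase best known from B cells and from IL-17-producing gamma-delta cells, was the most raised gene with the same sign in 4 of 4 libraries. It was found in 12 of 26, 6 of 15, 15 of 43 and 3 of 28 gamma-delta cells and in 8 of 3916 alpha-beta cells, with a log2 difference of 8.19 (SE 0.46). In B cells Blk was found in 41.5%. Scart1, a scavenger receptor of gamma-delta cells, was found in 16 of 26, 4 of 15, 14 of 43 and 2 of 28 gamma-delta cells and in 1.66% of alpha-beta cells (log2 difference 5.63, SE 0.29). The related Scart2 was found in 20 gamma-delta cells (log2 difference 4.74, SE 0.30).

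Of the transcription factors of the programme, Sox13 and Zbtb16 were called. Sox13, which guides gamma-delta cells to the IL-17 fate, was found in 18 gamma-delta and 4 alpha-beta cells (log2 difference 7.41, SE 0.81). Zbtb16, the innate-like T cell factor PLZF, was found in 27 gamma-delta cells, against 1.56% of alpha-beta cells (4.75, SE 0.43). Maf and Rora, also factors of this programme, were found in 45 and 51 gamma-delta cells, had log2 differences of 0.64 and 0.44 and did not pass the test. Sox13 and Zbtb16 reached the filter on low counts only with the gamma-delta cells, so their calls are in part set by it. Alpha-beta cells alone would have carried Maf and Rora through it.

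The cytokine Il17a itself was found in 6 of 26, 2 of 15, 5 of 43 and 3 of 28 gamma-delta cells, at 387, 101, 392 and 532 CPM. Alpha-beta cells had 25.9, 109, 29.3 and 12.0 CPM. The STING agonist library was the exception, with nearly the same level in both kinds of cell. Over the 4 libraries Il17a was higher in gamma-delta cells by 3.29 (SE 0.28, edgeR adjusted p = 2.68e-28), and 31 of its 104 UMIs came from 1 cell of the LTbR agonist library. Il17f was found in 2 gamma-delta cells and Il22 in 0.

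The receptors that go with this fate were raised as well. Il1r1, the IL-1 receptor, was found in 37 gamma-delta cells and was higher by 3.67 (SE 0.31), and Il7r, the receptor for the survival factor IL-7, was found in 79 and was higher by 0.93 (SE 0.20). The call on Il7r was lost without the Untreated library (edgeR adjusted p = 0.109) and after thinning (0.116). Ccr6, a chemokine receptor of type 17 cells, had a log2 difference of 1.01 (SE 0.70) and did not pass the test. Among genes outside the lists, the largest rises were in Cdh10 (log2 difference 7.80), Abi3bp (7.73), Scn8a (5.87), Dlc1 (5.27), Pde5a (5.27) and Sdk1 (5.11). Cdh10 encodes a cadherin and was found in 17 gamma-delta cells. Abi3bp encodes a matrix protein and was found in 23.

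**Figure D1:**
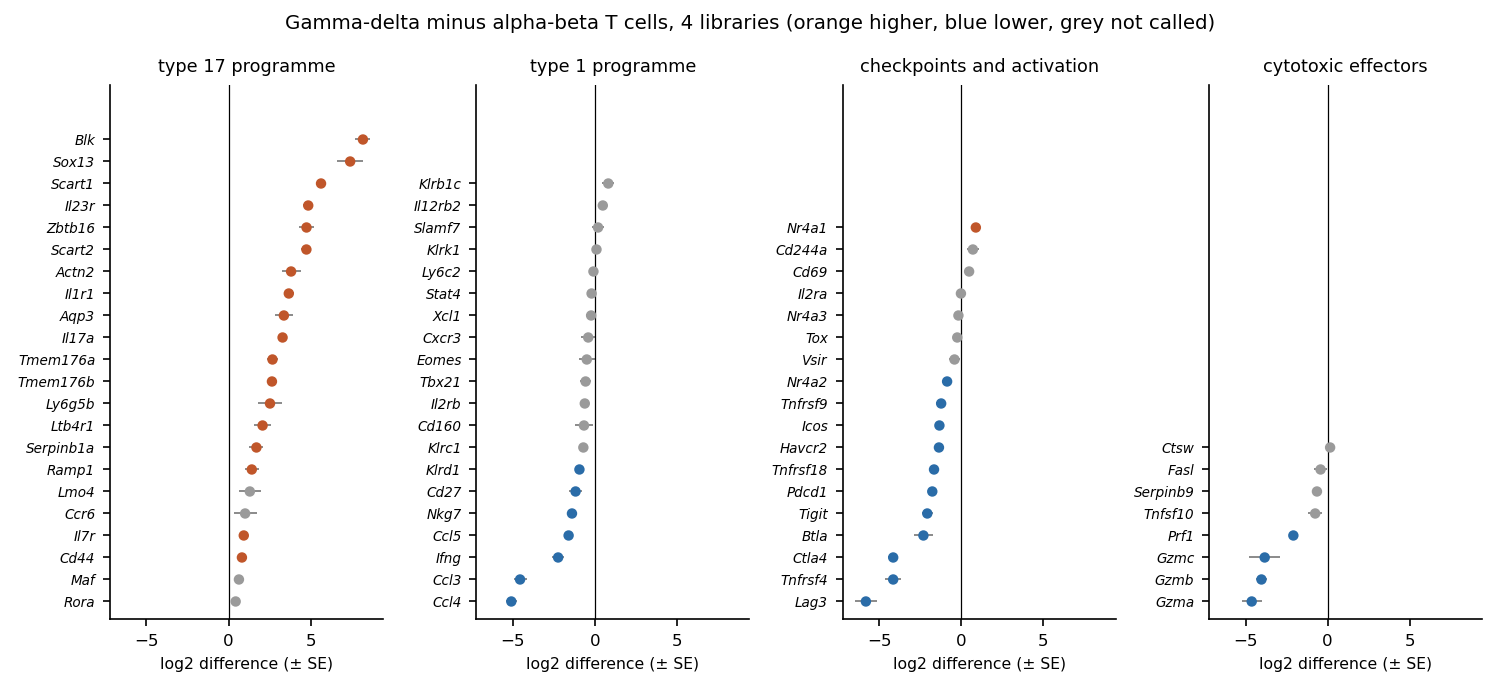
Log2 difference between gamma-delta and alpha-beta T cells (x axis) for genes of 4 lists, from edgeR over 4 libraries, with bars of 1 SE and orange for genes called higher, blue for lower and grey for not called. Genes with 0 UMIs in gamma-delta cells, such as Gzmk, are left out of the plot. Type 17 genes lie to the right, with Blk at 8.19 and Il23r at 4.85, and cytotoxic and checkpoint genes mostly to the left, with Ctla4 at -4.14 and Gzmb at -4.03.

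Genes of the interferon-γ-producing, or type 1, programme were lower or not different by the test. Of 20 genes, all tested, 7 were called lower and 0 higher, with a median log2 difference of -0.59. Nkg7, a protein of cytotoxic granules, was found in 7 of 26, 6 of 15, 22 of 43 and 18 of 28 gamma-delta cells, at 145, 527, 947 and 1104 CPM. Alpha-beta cells had 1751, 1409, 1288 and 1513 CPM, above the gamma-delta level in each library (log2 difference -1.39, SE 0.22, edgeR adjusted p = 2.06e-08; DESeq2 adjusted p = 0.224). The chemokine genes Ccl4 (log2 difference -5.09) and Ccl3 (-4.55) were almost missing from gamma-delta cells, with UMIs in 6 and 5 cells. Ccl5 was lower by less, at -1.60 (SE 0.21). Ifng was found in 0 of 26, 0 of 15, 5 of 43 and 2 of 28 gamma-delta cells, against 19.8% of alpha-beta cells (log2 difference -2.24, SE 0.35; DESeq2 adjusted p = 0.126). Tbx21, the type 1 master factor T-bet, had a log2 difference of -0.57 (SE 0.31) and did not pass the test.

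Cytotoxic effector genes gave 5 lower and 0 higher of 10 genes, of which 9 were tested. Gzmb, granzyme B, was found in 0 of 26, 1 of 15, 5 of 43 and 3 of 28 gamma-delta cells, at 0, 40.6, 49.0 and 59.1 CPM. Alpha-beta cells had 556, 783, 538 and 395 CPM, and the log2 difference was -4.03 (SE 0.35). Prf1, the pore protein perforin, was found in 19 gamma-delta cells and had a log2 difference of -2.09 (SE 0.27). Gzmk had 0 UMIs in gamma-delta cells, and with a floor of 3 counts over the group it was at least 5.02-fold lower.

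Of the 18 checkpoint and activation genes, 11 were lower and 1 was higher. Lag3, an inhibitory receptor, was found in 0 of 26, 0 of 15, 0 of 43 and 1 of 28 gamma-delta cells, against 24.8% of alpha-beta cells. Its pooled level in alpha-beta cells was 52.1 times that in gamma-delta cells, with an exact binomial 95% interval of 9.33 to 2057 that follows from the single UMI. Ctla4 was found in 6 gamma-delta cells, all of the LTbR agonist library, against 50.7% of alpha-beta cells (-4.14, SE 0.32). Pdcd1, which encodes PD-1, was found in 15 gamma-delta cells, or 7.14% after thinning against 20.5% of alpha-beta cells (-1.76, SE 0.29). The costimulatory receptors Tnfrsf4 (log2 difference -4.14), Tnfrsf18 (-1.66; DESeq2 adjusted p = 0.291), Icos (-1.33) and Tnfrsf9 (-1.22) were lower too. Nr4a1, an immediate early gene of receptor signalling, was the 1 higher gene (0.89, SE 0.23), and its call was lost without the library with both agonists (edgeR adjusted p = 0.0868).

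Cd4 had 0 UMIs in gamma-delta cells, at least 12.5-fold lower than in alpha-beta cells, where it was found in 21.7%. Cd8a was found with 1 UMI in 1 gamma-delta cell and in 42.4% of alpha-beta cells, where its level was 136 times as high (24.5 to 5385). Both lineage receptors were thus nearly missing, although the gate did not use them. Foxp3, the factor of regulatory T cells, and Penk, the opioid precursor enkephalin, also had 0 UMIs and were at least 7.19-fold and 12.8-fold lower. The same holds for Klrh1 (13.8-fold), Gzmf (10.7-fold), Myo10 (11.8-fold), Ccl1 (11.2-fold), Serpine2 (6.85-fold), Csf1 (7.13-fold) and Filip1 (7.46-fold), each of them a bound.

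Trafficking genes split, with 4 higher and 4 lower of 16 tested. Itgae, the integrin chain CD103 that holds T cells to epithelium, was found in 8 of 26, 5 of 15, 12 of 43 and 9 of 28 gamma-delta cells, at 242, 243, 245 and 276 CPM, against 81.1, 71.6, 48.0 and 37.9 CPM in alpha-beta cells. Every gamma-delta level exceeded every alpha-beta level, and the log2 difference was 1.96 (SE 0.29, edgeR adjusted p = 1.93e-09). Its partner Itgb7 was higher by 1.11 (SE 0.24), as were Cxcr4 (0.97) and Ccr2 (0.89). Ccr7 (-1.29) and Itga4 (-0.80) were lower, and so was Ccr8, which had 1 UMI in gamma-delta cells. Without the Untreated library the calls on Ccr2 (edgeR adjusted p = 0.437), Cxcr4 (0.15) and Itga4 (0.107) were lost. That on Ccr2 was also lost without the LTbR agonist library (0.0824), and those on Ccr7 and Itga4 without the STING agonist library (0.195 and 0.0552) or the library with both agonists (0.0736 and 0.265). Thinning removed the calls on Ccr2 (edgeR adjusted p = 0.509), Cxcr4 (0.353), Ccr7 (0.268), Itga4 (0.709) and Ccr8 (0.113). With Tcrg-C1, Tcrg-C2 or Tcrg-C4 also required, those on Cxcr4 (0.197) and Itga4 (0.0568) were lost.

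Receptor signalling and metabolic genes moved in both directions. Of 9 tested genes of the CD3 complex and proximal signalling, Blk and Fcer1g were higher and Lck was lower. Fcer1g, an adaptor that can stand in for the CD3 zeta chain, was higher by 1.36 (SE 0.23) and Lck, the kinase that starts receptor signalling, was lower (-1.27, SE 0.25). Among 8 tested lipid and metabolic genes Hif1a (-1.27) and Ldha (-1.22) were lower, as was Fabp5 with 1 UMI in gamma-delta cells, and Plin2 (1.80) and Abca1 (1.47) were higher. Of 12 tested repair and growth factor genes, Tnf was higher (1.61) and Csf1 and Il10 were lower, and of 10 tested naive and memory genes Cd44 was higher (0.82) and Ccr7 and Id2 (-0.79) were lower. Without the Untreated library the calls on Abca1 (edgeR adjusted p = 0.716), Tnf (0.692), Cd44 (0.213) and Id2 (0.0607) were lost, and without the STING agonist library those on Plin2 (0.157), Fabp5 (0.0879) and Id2 (0.246). Without the LTbR agonist library those on Il10 (0.114), Tnf (0.129) and Abca1 (0.0670) were lost. Of 27 tested interferon-stimulated genes only Ifi27l2a was called (-3.04, SE 0.29). Of 11 tested cell cycle genes 0 passed edgeR's threshold, and 4 had an unadjusted p under 0.05, all of them lower.

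Markers of other cell types were read beside these results. In the gamma-delta cells 6 of 6 tested markers of alpha-beta cells were lower than in alpha-beta cells, 3 of 5 NK markers were lower and 0 of 6 macrophage markers differed by the test. Cells with Ncr1 or Csf1r were left out of both kinds, so NK and macrophage signal was limited on both sides beforehand. The stress genes Fos and Fosb, which also respond to tissue dissociation, were higher by 0.94 (SE 0.24) and 1.22 (SE 0.26), and their part in the other differences was not tested. Fos was not called without the library with both agonists (edgeR adjusted p = 0.110).

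Gamma-delta cells were then compared with NK cells, the innate lymphocytes closest to them. Type 17 genes were again higher, and 11 of 18 tested type 1 genes and 5 of 7 cytotoxic genes were lower. Of 3037 genes tested, edgeR called 148 higher in gamma-delta cells (4.87%) and 128 lower (4.21%). Of the 27 type 17 genes 14 passed the filter on low counts, and edgeR called them higher. Of these 14, 12 passed only with the gamma-delta cells, so the count is largely set by the filter. Rora and Cd44, which NK cells alone would have carried through it, were both higher. The call on Cd44 was lost without the LTbR agonist (edgeR adjusted p = 0.0869), the STING agonist (0.0839) or the Untreated library (0.0756). Il23r, Scart1, Il1r1, Blk and Adam12 had 0 UMIs in NK cells and were at least 121-fold, 149-fold, 87.7-fold, 93.1-fold and 88.6-fold higher in gamma-delta cells, on a floor of 3 counts over the group. Plcg1, a phospholipase of T cell receptor signalling, was found with 47 UMIs in 33 gamma-delta cells and 1 UMI in 1 NK cell, a ratio of levels of 127 (21.8 to 5140). Abi3bp was higher by 4.87 (SE 0.47), and Itgae, found in 4 NK cells, was higher by 4.84 (SE 0.48).

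Among type 1 genes 11 of 18 tested were lower and 1 was higher than in NK cells. Eomes, the NK and CD8 T cell factor, was found in 9 gamma-delta cells and 40.2% of NK cells (log2 difference -2.77, SE 0.40). Ly6c2, a surface protein of memory-like T cells, was found in 40 gamma-delta cells and 31 of 281 NK cells and was the 1 higher gene (2.59, SE 0.28). Gzma was found with 2 UMIs in 1 gamma-delta cell and in 58.4% of NK cells, whose level was 329 times as high (90.9 to 2718). The killer cell lectin-like receptor Klra4 had 0 UMIs in gamma-delta cells and was at least 52-fold lower, and Klra8, with 3 UMIs in 1 gamma-delta cell, was 42.3 times as high in NK cells (14.3 to 206). All 7 tested NK markers were lower. Bounds for other genes with 0 UMIs in gamma-delta cells were at least 25.6-fold for Adamts14, 14.9-fold for Vegfc, 13.4-fold for Sulf2 and 9.59-fold for D5Ertd615e. Gzmc, Klri2 and Car2 were each found with 1 UMI in 1 gamma-delta cell, and their levels in NK cells were 144 (25.7 to 5695), 83.7 (14.9 to 3321) and 86.7 times as high (15.4 to 3437).

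Within the gamma-delta cells some genes of the 2 programmes were found in different cells. Il23r was found in 37 cells and Nkg7 in 53, and 0 of the 112 cells held both. If the genes had been placed independently at their shares within each library, 15.8 cells would have held both. A further 22 cells held neither. This pair of genes was chosen after the co-detection values were seen, so what follows describes the cells and is not tested. The median depth was 2421 UMIs in cells with Il23r, 2871 in cells with Nkg7 and 1745.5 in cells with neither.

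Many genes of the type 17 list were found mostly in cells with Il23r. Il1r1 was found in 30 of the 37 cells with Il23r and 0 of the 53 with Nkg7, Blk in 29 and 0, Zbtb16 in 24 and 0, Scart1 in 25 and 2, Scart2 in 14 and 0, Il17a in 13 and 0 and Ccr6 in 7 and 0. Other members of the list divided less or not at all. Il7r was found in 31 cells with Il23r and 35 with Nkg7, where the product of the shares gave 36.9 for Il7r with Nkg7, and Cd44 in 33 and 27, against 33.6. Outside the list, the chemokine receptor Ccr2 was found in 28 and 2, and Cxcr6 in 31 and 11. Pdcd1 followed the same side with 11 and 2.

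Many genes of the type 1 list were found mostly in cells with Nkg7. Ly6c2 was found in 36 of the 53 cells with Nkg7 and 0 of the 37 with Il23r, Ccl5 in 35 and 0, Klrd1 in 32 and 1, Il12rb2, the receptor subunit for IL-12, in 25 and 1, Xcl1 in 19 and 0, Cd27 in 13 and 0 and Ifng in 7 and 0. Prf1, of the cytotoxic list, was found in 17 and 1. Other members were shared with Il23r nearly as often as the product of the shares gave. Il2rb was found in 22 cells with Il23r against 24.3 by that product, Klrk1 in 13 against 13.4, Stat4 in 19 against 22.1 and Tbx21 in 4 against 5.56. Receptor signalling genes divided too, with Lck in 35 and 0 and Fcer1g in 29 and 5.

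Tcrg-C1 and Trdv4 did not divide as these genes did, while some V gamma segments differed. Tcrg-C1 was found in 28 of the 37 cells with Il23r (75.7%) and 28 of the 53 with Nkg7 (52.8%), and Trdv4 in 15 and 13. Trgv6 was found in 6 and 1, Trgv5 in 0 and 6, and Trgv1 in 2 and 10. By library Tcrg-C1 was found in 1 of 7, 4 of 6, 14 of 22 and 9 of 18 cells with Nkg7 and in 9 of 13, 4 of 6, 11 of 13 and 4 of 5 cells with Il23r, so the Untreated cells with Nkg7 were the lowest. In NK cells it was found in 0 of 281. Of the 8 gamma-delta cells with a Trgv1 call, 2 held Tcrg-C1, 5 held Tcrg-C2 and 4 held Tcrg-C4. How far the V gamma segment goes with the Tcrg-C1 values of these sets was not tested. The NK marker Klrb1c was found in 15 of the 53 cells with Nkg7.

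The cells with Nkg7 were not of 1 kind. Of the 13 with Trdv4, 0 held Ly6c2 or Ccl5 and 1 held Il7r, whereas of the 40 without Trdv4, 39 held Ly6c2 or Ccl5 and 34 held Il7r. Cells with both Nkg7 and Trdv4 numbered 0 of 7, 3 of 6, 4 of 22 and 6 of 18 by library, so the make-up of the set differed between libraries. This split was chosen after the values were seen and is a description.

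The same count was made across both lists. Of 330 pairs of a type 17 and a type 1 gene, each found in at least 10 gamma-delta cells, 294 shared fewer cells than the product of their shares, and 118 pairs shared 0 cells. After thinning to 1000 UMIs a cell, 125 of 150 pairs were below the product and 70 shared 0 cells. Pairs that use the same gene are not independent, so these are counts only. Classes on few genes overlapped more. On any UMI of Il17a, Il17f, Il23r or Ccr6 against any of Ifng, Tbx21, Eomes, Klrb1c or Il2rb, genes set after the data were seen, 16 cells were type 17 only, 55 type 1 only, 24 both and 17 neither. More cells thus held both than type 17 genes only, but after thinning 18 were type 17 only and 12 both. Without Il2rb, which was found in 76 of the gamma-delta cells, 36 were type 17 only, 29 type 1 only, 4 both and 43 neither.

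**Figure D2:**
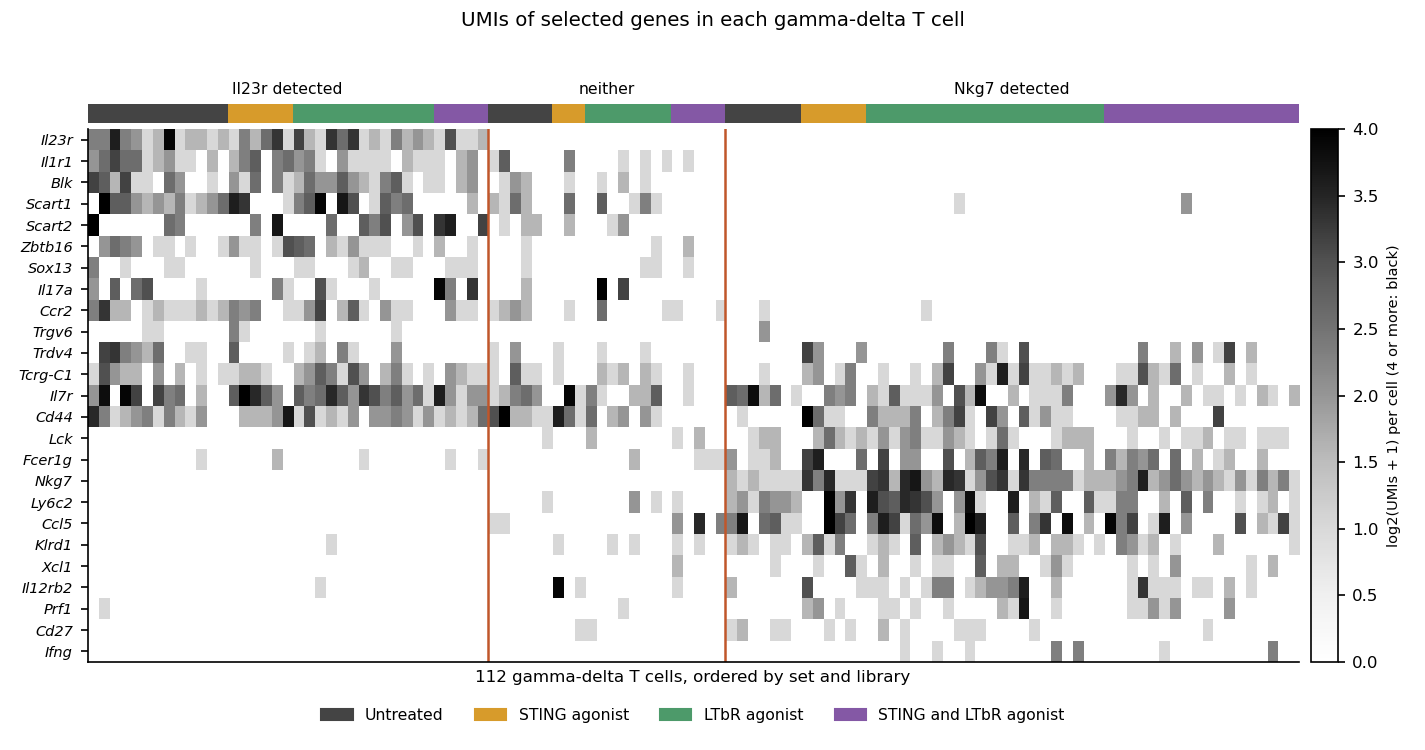
Each column is 1 of the 112 gamma-delta cells, ordered by set (Il23r detected, neither, Nkg7 detected) and within a set by library (colour bar), each row is a gene, and the grey shade is log2(UMIs + 1) in the cell. Cells with Il23r and cells with Nkg7 do not overlap, and type 17 genes such as Il1r1 and Blk lie mostly in the first set and Ly6c2 and Ccl5 in 36 and 35 of the 53 cells with Nkg7.

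Between libraries, the balance of the 2 sets leaned most to Il23r in the Untreated library and most to Nkg7 in the library with both agonists. Il23r was found in 50% (29.9 to 70.1), 40% (16.3 to 67.7), 30.2% (17.2 to 46.1) and 17.9% (6.06 to 36.9) of gamma-delta cells. Nkg7 was found in 26.9% (11.6 to 47.8), 40% (16.3 to 67.7), 51.2% (35.5 to 66.7) and 64.3% (44.1 to 81.4). Of cells with either gene, those with Nkg7 made up 7 of 20 (35.0%, 15.4 to 59.2), 6 of 12 (50%, 21.1 to 78.9), 22 of 35 (62.9%, 44.9 to 78.5) and 18 of 23 (78.3%, 56.3 to 92.5). The intervals are Clopper-Pearson 95% intervals, and those of every pair of libraries overlapped, for Untreated and both agonists only between 56.3 and 59.2%. After thinning the shares were 28.6, 25, 61.5 and 83.3%, with the STING agonist library below Untreated, and with Tcrg-C1, Tcrg-C2 or Tcrg-C4 also required they were 20, 40, 62.5 and 73.3%. With Trbc allowed they were 56.7, 62.5, 75.0 and 81.5%, so that cells with Nkg7 were then the more frequent in the Untreated library too.

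**Figure D3:**
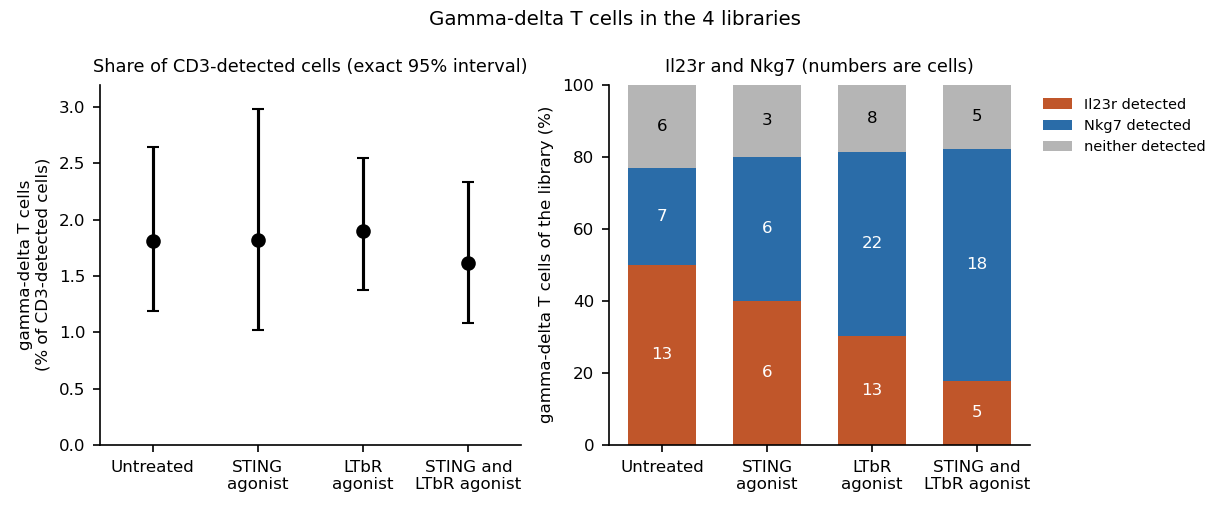
Left, gamma-delta cells in percent of CD3-detected cells in the 4 libraries, with Clopper-Pearson 95% intervals; right, stacked bars of the percent of gamma-delta cells of each library with Il23r, with Nkg7 and with neither, where numbers are cells. The share of gamma-delta cells stays between 1.62 and 1.90%, while cells with Il23r go from 13 of 26 to 5 of 28 and cells with Nkg7 from 7 of 26 to 18 of 28.

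Summed levels were also read within each set. In cells with Il23r, the other type 17 genes summed to 13646, 15281, 14868 and 15652 CPM. In cells with Nkg7, the other type 1 genes summed to 6505, 6420, 7408 and 6699 CPM. These sums were close in the 4 libraries, although cells with Nkg7 and Trdv4 were missing from the Untreated set, whereas the type 1 sum in cells with Il23r was 945 CPM in Untreated (646 to 1334) and 2333 CPM in the STING agonist library (1667 to 3177). In the 6, 3, 8 and 5 cells with neither gene, the type 17 sum was 11133, 5763, 10647 and 1988 CPM and the type 1 sum 2569, 4014, 1830 and 8133 CPM. Over all gamma-delta cells, the type 17 sum was 11132, 7608, 6080 and 4574 CPM, against 1809, 2716, 1973 and 1699 CPM in alpha-beta cells. The type 1 sum was 2803, 5051, 6235 and 6860 CPM in gamma-delta cells and 10622, 10111, 8213 and 8897 CPM in alpha-beta cells. The order of libraries seen in gamma-delta cells was therefore not that of the alpha-beta cells.

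**Figure D4:**
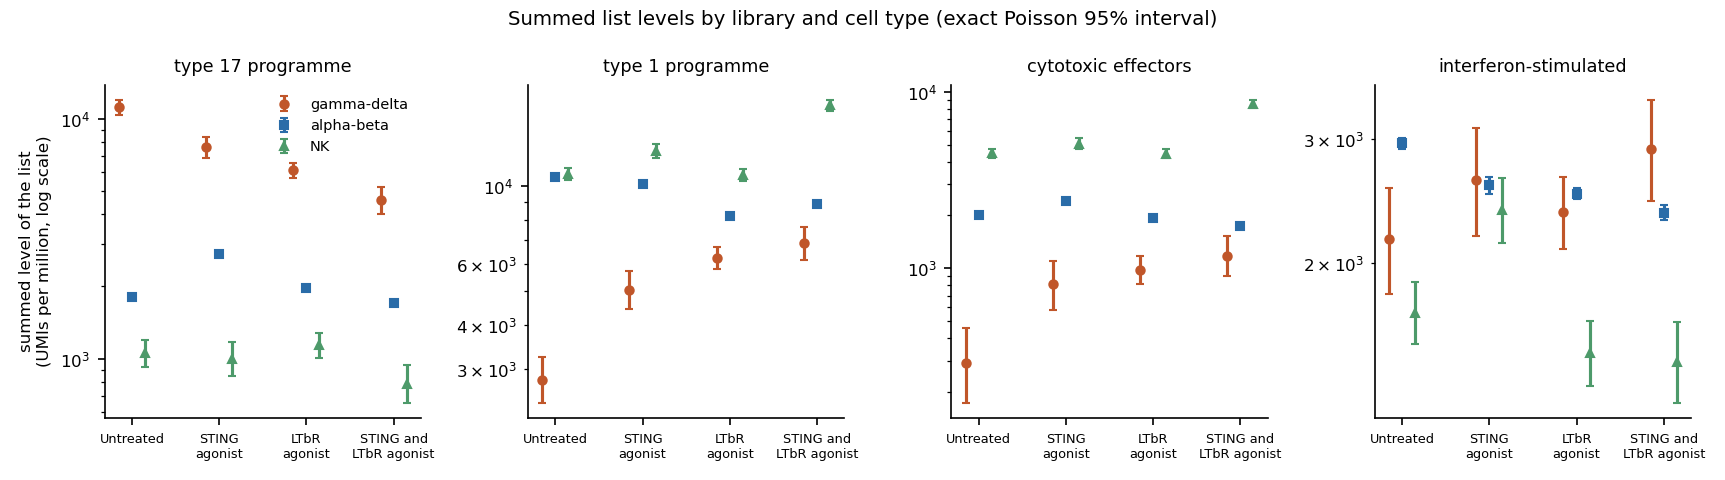
Summed CPM of the gene lists (y axis, log scale) in gamma-delta, alpha-beta and NK cells of the 4 libraries, with exact Poisson 95% intervals that cover counting error only. In gamma-delta cells the type 17 sum goes from 11132 to 4574 CPM and the type 1 sum from 2803 to 6860 CPM across the libraries, and the alpha-beta type 17 sum stays between 1699 and 2716 CPM.

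Each treatment was next set against Untreated within gamma-delta cells. A gene was past the fold rule when it differed at least 2-fold with an exact binomial 95% interval that excluded 1, with at least 20 UMIs over both libraries in at least 5 cells. With 1 library a treatment this rule compares libraries, and no p-value is given. All 3 comparisons share the Untreated library. Fewer cells of a kind and less RNA per cell cannot be told apart in such sums.

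With both agonists, 8 of 13 type 17 genes were lower and 5 of 8 type 1 genes higher. Of 1229 genes with enough UMIs, 58 were past the rule higher (4.72%) and 81 lower (6.59%). Of the type 17 list 13 genes had enough UMIs, and 8 were past the rule lower and 0 higher. Scart1 went from 999 to 98.6 CPM, a ratio of 0.0987 (0.0310 to 0.243), on 62 and 5 UMIs. Outside the gate, the 45 Untreated cells with Trdc and Trbc held 78 Scart1 UMIs, and the 39 with both agonists held 38. The size of the fall in Scart1 thus depended on the gate. Rora, found in 17 of 26 Untreated and 6 of 28 treated cells, had a ratio of 0.110, Blk 0.179, Il1r1 0.199, Il23r 0.288, Zbtb16 0.306, Tmem176a 0.233 and Cd44 0.472. Of the type 1 list 8 genes had enough UMIs, and 5 were past the rule higher and 0 lower. Nkg7 had a ratio of 7.61 (3.74 to 17.5), Il12rb2 11.6, Klrd1 3.26, Ccl5 3.04 and Il2rb 2.27. Il17a was not past the rule (386.6 to 532 CPM, ratio 1.38, 0.765 to 2.49). Il12rb2 rested on 2 UMIs of 1 cell in the Untreated library, and 9 of its 19 UMIs with both agonists were in 1 cell, without which it had too few UMIs for the rule. Outside the lists Cntn1 and Kcnma1 had 0 UMIs in the Untreated library and 20 and 21 with both agonists, each in 6 cells. Trat1, an adaptor of the T cell receptor, went from 0 to 26 UMIs in 7 cells. Fbxl5 and Ppp1r14c fell to 1 UMI each, with ratios of 0.0583 and 0.0644, and 14 of the 21 Fbxl5 UMIs of the Untreated library were in 1 cell, without which Fbxl5 was not past the rule. Macrophage markers in the same cells summed to 209 CPM in Untreated (112 to 358) and 552 with both agonists (367 to 798), and NK markers to 113 (45.3 to 232) and 276 CPM (151 to 463). Their part in the differences was not tested.

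In the LTbR agonist library 7 of 11 type 1 genes were higher and 4 of 17 type 17 genes lower. Of 2127 genes with enough UMIs, 85 were higher (4.00%) and 114 lower (5.36%). With TMM factors the split turned to 142 higher and 63 lower. Of 17 type 17 genes with enough UMIs, Rora (ratio 0.376), Il23r (0.487), Aqp3 (0.270) and Il1r1 (0.259) were past the rule lower, and 3 of the 17 were with TMM factors. Of 11 type 1 genes, 7 were higher, among them Nkg7 with a ratio of 6.53 (3.32 to 14.6), Il2rb 2.94, Klrd1 3.21 and Ly6c2 2.69. The NK marker Klrb1c was also among the 7, and NK markers summed to 113 CPM in Untreated (45.3 to 232) and 359 CPM with the LTbR agonist (261 to 482), a change whose part in the result was not tested. The cytotoxic genes Prf1 (10.6) and Serpinb9 (12.2) were also higher, each from 1 UMI in the Untreated library. Areg, the growth factor amphiregulin, went from 0 UMIs to 23 in 6 cells, and Gas7 and Klf12 from 0 to 29 and 28. Outside the gate, cells with Trdc and Trbc held 91 Areg UMIs in 2 Untreated cells and 13 in 4 cells with the LTbR agonist. The rise in Areg thus depended on the gate. Tgm2 (0.0921), Irf4 (0.113) and Cers6 (0.131) were lower. Single cells held 12 of the 21 Prf1 and 12 of the 23 Areg UMIs of the LTbR agonist library and 14 of the 22 Tgm2 and 30 of the 31 Cers6 UMIs of the Untreated library, and without that cell none of these 4 genes was past the rule.

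In the STING agonist library, 105 of 1255 genes with enough UMIs were higher (8.37%) and 63 lower (5.02%). Of 13 type 17 genes, Il17a (ratio 0.262) and Blk (0.461) were past the rule lower, and of 8 type 1 genes Nkg7 (3.64), Klrd1 (2.94) and Il12rb2 (14.5) were higher. The neutrophil chemoattractant Cxcl2 and the antiprotease Slpi had the largest rises, and 105 of the 118 Cxcl2 UMIs and 93 of the 95 Slpi UMIs came from the same cell. That cell held 90 of the 97 neutrophil-marker UMIs of the library's gamma-delta cells, including 71 of S100a9, beside 3 UMIs of Trdc and 4 of Cd3e. Summed neutrophil markers stood at 16.1, 1968, 139 and 78.9 CPM in gamma-delta cells and at 69.3, 1379, 257 and 788 CPM in alpha-beta cells, and their part in the differences was not tested. Without that cell 143 genes were past the rule, 88 higher and 55 lower, against 168 with it. It held 6 of the 14 Klrd1 UMIs, and without it Klrd1 had a ratio of 1.87 (0.568 to 6.53) on 14 UMIs in all and was no longer past the rule, nor was Blk at 0.512 (0.263 to 0.946). Nkg7 remained at 3.42 (1.52 to 8.45), Il12rb2 at 16.1 (3.98 to 141) and Il17a at 0.292 (0.0870 to 0.780). Ctnnd2, found in 4 of 15 and 2 of 26 cells, had a ratio of 16.4, and 8.92 (2.63 to 47.1) without the cell that held 20 of its 39 UMIs. Single cells also held 14 of the 23 Il12rb2 and 19 of the 30 Fosb UMIs of this library, and without that cell neither gene was past the rule. Gapdh had 0 UMIs in the STING agonist library against 24 in the Untreated library, Zeb2 went from 31 UMIs, 22 of them in 1 cell without which it was not past the rule, to 1, and Atp2a3 from 19 UMIs to 1. The immediate early genes Fos (6.09) and Fosb (5.40) were higher, and Fos was also past the rule in the other two treated libraries.

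Interferon-stimulated genes, which STING signalling is known to induce, had few UMIs in gamma-delta cells. Summed over the list they gave 2159, 2617, 2358 and 2898 CPM. With the STING agonist 0 of 1 gene with enough UMIs was past the rule, with the LTbR agonist 0 of 4 and with both agonists 1 of 3, which was Isg15 (ratio 2.86, 1.03 to 9.07). Of its 14 UMIs 9 were in 1 cell, without which it was not past the rule. The ratio of the sum to Untreated was 1.21 with the STING agonist (0.945 to 1.56), 1.09 with the LTbR agonist (0.887 to 1.35) and 1.34 with both (1.05 to 1.71), so the last was above counting error. In cells with Nkg7 the sum went from 1756 CPM in Untreated to 3605 CPM with both agonists, a ratio of 2.05 (1.35 to 3.24), in sets of which 0 of 7 and 6 of 18 cells held Trdv4. In cells with Il23r it had a ratio of 1.78 with the STING agonist (1.24 to 2.53) and 0.534 with both (0.255 to 1.01). In cells with neither gene it had a ratio of 0.357 with the STING agonist (0.158 to 0.733).

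The fetal segment Trgv6 was compared with the other V gamma calls. The gate held 5 cells with a Trgv6 call, too few in every library for a test, so the comparison was run with Trbc1 and Trbc2 UMIs allowed, in the 3 libraries that then had at least 3 cells of each kind. This gave 15 cells with Trgv6 and 78 with another call, of which 39 were Trgv2, the segment also seen in alpha-beta cells, 16 Trgv1, 13 Trgv5, 9 Trgv4 and 1 Trgv3, with median depths of 3069, 3822.5 and 3272 UMIs for Trgv6 and 3466.5, 4454 and 3478 for the others in the Untreated, STING agonist and LTbR agonist libraries. Of 735 genes tested, edgeR called 31 higher (4.22%) and 34 lower (4.63%) with Trgv6. Without the LTbR agonist library 0 genes were called in either direction by edgeR, with 60 and 82 at an unadjusted p under 0.05, so every call here rests on that library. DESeq2 called 27 and 27 over the 3 libraries.

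Several type 17 genes were higher in cells with a Trgv6 call. Of the 27 type 17 genes 14 were tested and 11 called higher, but 12 of the 14 passed the filter on low counts only with the Trgv6 cells, so the count is largely set by the filter. Scart1 was found in 15 of 15 cells with Trgv6 and 13 of 78 others, and was higher by 3.50 (SE 0.51, edgeR adjusted p = 0.00176). Il23r was found in 13 and 10 cells, Blk in 12 and 10, Il1r1 in 11 and 9, Maf in 13 and 15 and Il17a in 5 and 4. The chemokine receptor Ccr2 was found in 14 and 16 cells and was higher by 3.27 (SE 0.48).

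Of 7 tested type 1 genes 3 were lower in the same cells. Ccl5 was found in 0 of 15 cells with Trgv6 and 41 of 78 others, Ly6c2 in 0 and 39, and Klrd1 in 1 and 48. The other tested genes did not pass the test, with Il2rb found in 10 and 63 cells, Stat4 in 5 and 54, Klrk1 in 4 and 35 and Nkg7 in 1 and 56. Bcl2, a survival factor, was lower as well (log2 difference -2.64, SE 0.32). On the receptor itself, which was left out of the test, Trdv4 was found in 13 of 15 cells with Trgv6 and 22 of 78 others, and Tcrg-C1 in 15 of 15 and 48 of 78. Trbc1 was found in 6 of the 15 and Trbc2 in 8.

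**Figure D5:**
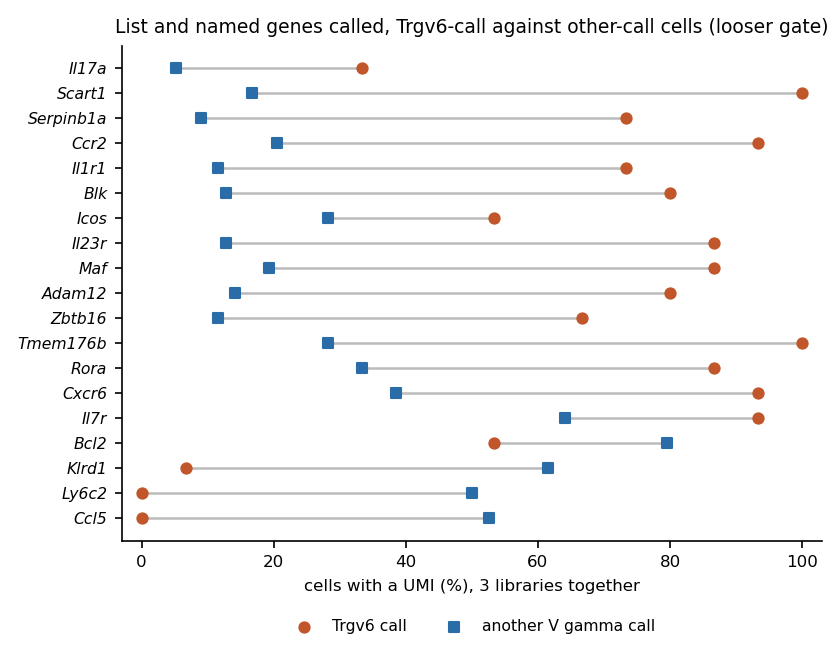
Percent of cells with a UMI (x axis) among cells with a Trgv6 call (orange circles) and with another V gamma call (blue squares), 3 libraries together with Trbc allowed, for the list and named genes that edgeR called. Scart1, in 15 of 15 and 13 of 78 cells, lies far apart, and Ccl5 and Ly6c2 lie at 0 with Trgv6.

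The place of gamma-delta cells among the sources of each cytokine was counted last. Gamma-delta cells held 104 of the 1455 Il17a UMIs of all cells within the limits (7.15%), while they were 112 of 51841 cells. Alpha-beta cells held 534 (36.7%) and the 184 cells with Trdc and Trbc together held 351 (24.1%). Cells outside these kinds and the NK cells held 465 (32.0%). By library the gamma-delta share of Il17a UMIs was 6.59, 1.38, 12.8 and 7.67%. In the LTbR agonist library, 31 of the 48 gamma-delta Il17a UMIs were in 1 cell. Of the 323 Il17f UMIs gamma-delta cells held 4, of the 220 Il22 UMIs 0 and of the 4514 Ifng UMIs 16 (0.354%). Areg came to 78 UMIs in gamma-delta cells out of 25652, with 0 in the Untreated library. The cells with Trdc and Trbc together held 156 Areg UMIs, of which 91 were in the Untreated library.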

How the data were processed

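RNA was measured in 4 libraries of CD45+ cells, 1 per treatment, by a Chromium 5′ assay, which the labels name as GEM-X v3 and the methods of the study as an earlier kit. The deposited values are raw UMI counts for every gene in every cell, without normalization by the authors. The matrix headers give Cell Ranger 8.0.1 as their source, and the submitters' processing notes give 7.1.0 and mm10. Of 33696 feature identifiers 31961 were found in GENCODE M21. A second experiment of the study was not analysed here.

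Cells were gated as the report states, with no clustering. The members, gene lists and tests were chosen with earlier results of these data known. UMIs were summed per library and cell kind and tested with edgeR 4.0.16 (quasi-likelihood, TMM, filterByExpr, library as a block, Benjamini-Hochberg, 0.05), with the 4 libraries as replicates of a difference between cell kinds, not of a treatment. DESeq2 1.42.0 was an alternative. The libraries may share technical features, so p-values measure only the spread between them. Named genes were the members of the lists, the 10 largest rises and falls with the same sign in 4 of 4 libraries, and the 3 largest per treatment, leaving out antigen receptor, mitochondrial, ribosomal protein, predicted and sex-linked genes and, for B, myeloid, mast and carcinoma cells, their markers. Shares have Clopper-Pearson 95% intervals, CPM exact Poisson and CPM ratios exact binomial ones (scipy 1.17.1). UMIs are molecules, and these intervals and the floor of 3 counts cover counting error only. Scrublet in scanpy 1.11.5 set the doublet alternative. Total UMIs per library ran from 52109958 to 85855398. The edgeR test against alpha-beta cells was also run on simulated counts, and its outcome there is not given here. A few list genes go unreported here, and cell classes were set without them.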

Additional observations from a re-analysis of the deposited data

Results flagged for a closer look

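Cells with Trdc, a CD3 gene and Trbc1 or Trbc2 but no Trac fell outside the gate, and they held signals of gamma-delta cells above the level in alpha-beta T cells. Of these 184 cells, 48.9% held Tcrg-C1 (95% Clopper-Pearson interval 41.5 to 56.4), against 3.45% of 3916 alpha-beta cells. Scart1 was found in 22.3% (16.5 to 29.0) against 1.66%, Il23r in 19.0% (13.6 to 25.4) against 2.50% and Trdv4 in 20.7% (15.0 to 27.2) against 0.128%. Cd4 was found in 1 of these cells and Cd8a in 2. They were selected on Trdc, which lies on the same messenger RNA as Trdv4, so that value is not independent of the selection.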

How the results depend on the processing

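Differences of genes called against alpha-beta and NK cells kept their sign in the alternatives run. Of 1349 values over 106 genes called against alpha-beta cells, 140 lost their call under an alternative, and of 908 values over 74 genes called against NK cells 46 did. Counts depended more on the setting. With Trbc allowed, edgeR called 373 genes higher than in alpha-beta cells, 277 higher and 250 lower than in NK cells, and 376 and 283 genes were past the fold rule with the STING agonist and with both agonists. After thinning the calls were 85 higher and 183 lower against alpha-beta cells and 62 and 70 against NK cells, and 23, 44 and 37 genes were past the fold rule with the STING agonist, the LTbR agonist and both, with fewer UMIs to test. With at least 40 UMIs these were 64, 76 and 53. DESeq2 called 241 lower than in alpha-beta cells. With no filter on low counts 233 were higher and 289 lower than in NK cells, and 18 higher and 113 lower with Trgv6. Leaving out 1 library at a time gave 176 to 226 higher and 199 to 274 lower against alpha-beta cells, 87 to 149 and 62 to 138 against NK cells, and 0 to 70 and 0 to 56 with Trgv6. The lowest NK counts came without the LTbR agonist library, and without the Untreated library 199 were lower than in alpha-beta cells. With no replicate block, here the library, 174 higher and 271 lower genes were called against alpha-beta cells. The number of libraries with enough cells for the Trgv6 comparison was 0 in the gate and 3 with Trbc allowed. The cause of these shifts was not tested. With 0 of 112 cells holding a UMI, the share of cells with a UMI may be up to 3.24%, which does not limit the share that express the gene.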
